A study of Mus musculus with 6 samples.

Results

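Mitosis and chromosome segregation genes were examined in primary mouse pancreatic stellate cells (PSCs), the fibroblast-like cells of the pancreas that can give rise to cancer-associated fibroblasts. The set held 54 genes chosen by name for their function, out of 55421 genes in the deposited table. It comprised mitotic kinases and cyclins, spindle checkpoint and kinetochore genes, kinesins, condensin subunits, cytokinesis genes and late cell cycle transcription factors. Each symbol was matched to 1 gene identifier in GENCODE M21.

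The PSCs came from wild-type C57BL/6 mice of both sexes, taken as young adults, and were used as primary lines at low passage. In every sample they were embedded in Matrigel in a transwell insert above tumor organoids of mT3, a line from a primary mouse pancreatic ductal adenocarcinoma (PDAC). The 3 normoxic samples were kept at 21% O2 and the 3 hypoxic samples at 1% O2, all for 48 h, and neither group contained PSCs without organoids. RNA from the PSCs was sequenced, and levels are given as CPM, read counts scaled to a common library size with the TMM method.

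A dividing cell enters mitosis when cyclin-dependent kinase 1 (CDK1), held by cyclin B, phosphorylates its many substrates. Condensin then compacts the chromosomes, kinetochores built on the centromere attach them to spindle microtubules, and the spindle checkpoint holds back the anaphase-promoting complex (APC/C) until every chromosome is attached. The APC/C next marks cyclin B and securin for destruction, separase cuts cohesin, and the cell divides. Many of these genes are transcribed mainly in G2 and mitosis, through promoter elements named the cell cycle genes homology region (CHR) and the CCAAT box, which the DREAM and MuvB complexes and NF-Y are known to bind.

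Because such shared elements are part of what these genes are known for, the letters before their start sites were read first. RefSeq promoter windows, each 300 bases long (250 before the start and 50 after it), were found for 44 of the 54 genes. For 6 examples, the 100 bases before the start are shown on the strand of the gene in GRCm38.p6. They were chosen because they hold both elements or several copies of 1 of them and cover the kinase that starts mitosis, its cyclin, and factors that act on chromosomes, the APC/C, the spindle and cohesin. Capitals mark TTTGAA, the core of the CHR, and CCAAT, each on either strand (TTCAAA and ATTGG when reversed). The stretches lie at chr10:69352913-69353012 (minus strand) for Cdk1, chr9:70421555-70421654 (minus) for Ccnb2, chr11:99024190-99024289 (minus) for Top2a, chr4:118437344-118437443 (minus) for Cdc20, chr19:37376282-37376381 (plus) for Kif11 and chr15:102296193-102296292 (plus) for Espl1. The last bases of those of Cdk1, Cdc20 and Espl1 lie inside the gene as GENCODE M21 draws it.
Cdk1: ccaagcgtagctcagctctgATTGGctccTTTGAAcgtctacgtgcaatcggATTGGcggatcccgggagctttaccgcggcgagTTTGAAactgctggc
Ccnb2: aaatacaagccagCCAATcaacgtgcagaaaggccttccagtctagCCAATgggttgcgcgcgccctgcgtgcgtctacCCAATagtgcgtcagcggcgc
Top2a: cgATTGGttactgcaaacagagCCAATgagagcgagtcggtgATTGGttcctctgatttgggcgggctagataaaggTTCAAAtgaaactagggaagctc
Cdc20: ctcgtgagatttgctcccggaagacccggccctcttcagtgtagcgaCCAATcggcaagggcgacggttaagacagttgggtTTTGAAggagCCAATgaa
Kif11: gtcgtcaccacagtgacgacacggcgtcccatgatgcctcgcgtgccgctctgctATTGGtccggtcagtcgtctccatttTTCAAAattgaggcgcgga
Espl1: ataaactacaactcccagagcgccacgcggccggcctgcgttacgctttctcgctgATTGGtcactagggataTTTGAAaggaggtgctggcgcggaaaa

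Over the 44 matched genes, the CHR core was in the window of 29 (65.9%), against 14.3% of the tested genes with a window and 20.2% of all genes of the table with one. CCAAT was in the windows of 30 (68.2%), against 42.7% and 41.1%, and 25 (56.8%) held both, against 5.96% and 7.97%. Letters that resemble sites of E2F factors, which were TTCCCGC and the variants TTGGCGC along with TTCGCGC as well as TTGCCGC, were in 11 (25%), against 18.8% and 10.9%. A reversed CCAAT can share letters with TTGGCGC, and a CCAAT can share its last letter with TTTGAA, and each match was counted. In a list of S phase genes the balance lay the other way, with the CHR core in 20.5% and E2F-type letters in 64.1% of 39 matched genes. These are matches of letters, not measured binding.

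At 1% O2 the mitosis genes were lower almost throughout. All 54 were detected well enough to be tested, and 51 fell at a linear fold change beyond 1.5 and an adjusted p under 0.05 (edgeR quasi-likelihood test, Benjamini-Hochberg over 16207 genes). Of all genes tested, 15.3% were called lower and 18.9% higher by the same rule. None of the 54 rose: 0 were called higher by edgeR, DESeq2 or limma-voom, and 0 were higher at an unadjusted p under 0.05. The 3 genes that were not called were Bub3, Smc4 and Pttg1.

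The median log2 fold change of the 54 genes was -2.14, which is 4.41-fold lower, while the median over all tested genes was 0. Called genes ranged from -3.03 (Spc24, 8.17-fold lower) to -0.87 (Ncapd2, 1.83-fold lower), with adjusted p from 2.72e-07 to 0.000877 by the edgeR test. A log2 fold change below -2 with an adjusted p under 0.05 was reached by 33 of the 54, and by 1.89% of all tested genes. For 53 of the 54 genes every hypoxic sample lay below every normoxic sample, which held for 34% of all tested genes. By the adjusted p alone 53 were lower, against 31% of all tested genes.

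**Figure D1:**
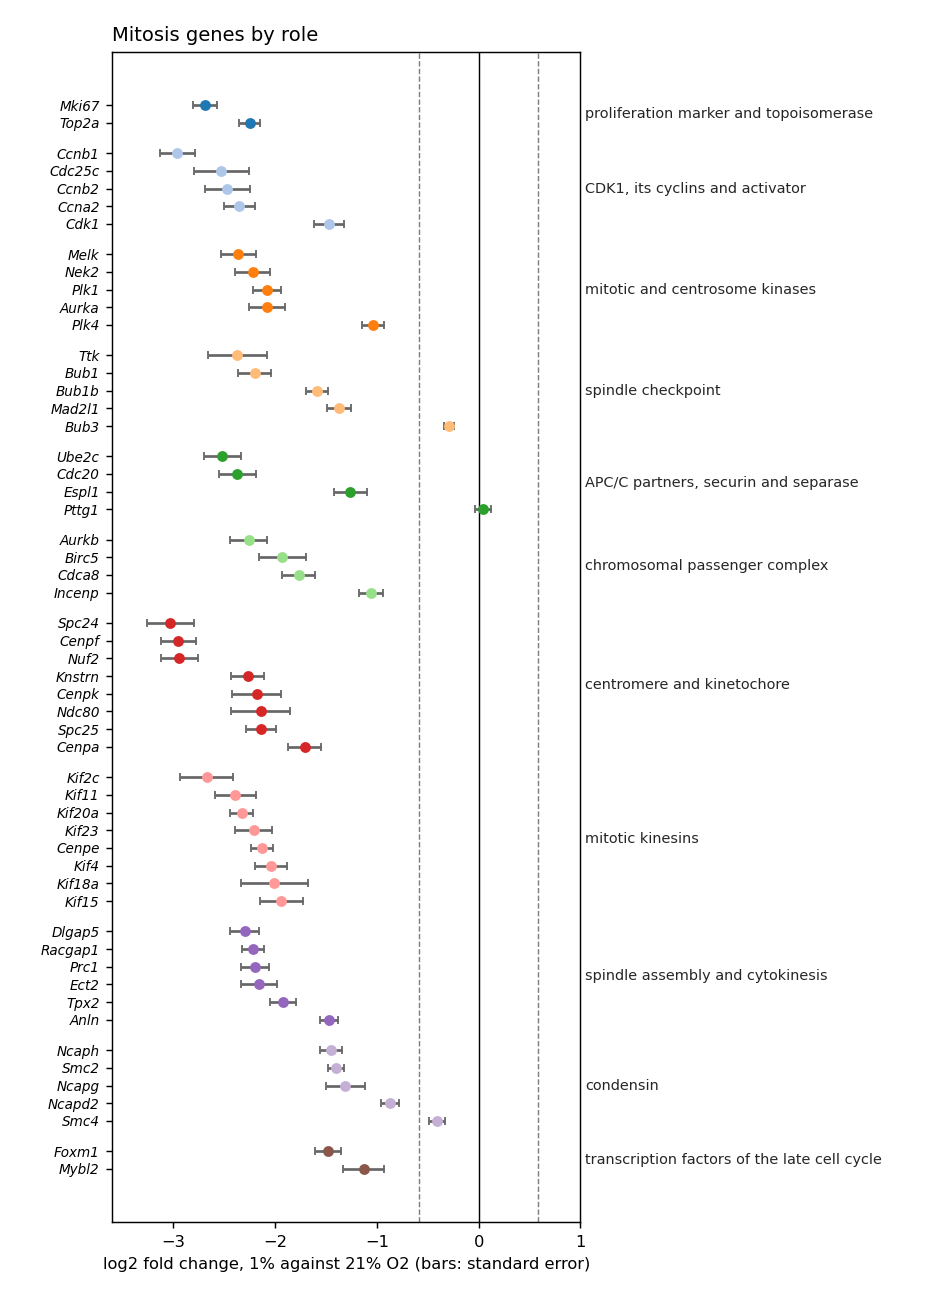
The log2 fold change of each of the 54 genes at 1% against 21% O2 (x axis) with its standard error (bars), grouped and coloured by role; dashed lines mark a fold change of 1.5 in either direction. All points but Bub3, Smc4 and Pttg1 lie left of the left dashed line, and the kinetochore genes Spc24, Cenpf and Nuf2 and the cyclin Ccnb1 lie farthest left.

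Summed over the 54 genes, the level was 870, 1020 and 853 CPM in normoxic samples 1 to 3 and 310, 322 and 349 CPM in hypoxic samples 1 to 3. The group means were 914 ± 91.1 and 327 ± 20 CPM (SD, n = 3), 2.8-fold apart, and the groups did not overlap. Normoxic sample 2 was the highest of its group for 49 of the 54 genes. Hypoxic sample 3 was the highest of its group for 37 genes and hypoxic sample 1 the lowest for 34. Per gene, the median coefficient of variation was 13.7% in normoxia and 13.6% in hypoxia, against 8.76% and 6.95% over all tested genes. It also holds counting error, and in 33 of the 54 genes some library had fewer than 100 counts. Whether the genes varied together within a group was not tested. Without normoxic sample 2, 51 of the 54 were still called lower and the median log2 fold change was -2.03. In bulk RNA of the PSCs, fewer dividing cells and less of these transcripts per cell cannot be told apart.

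**Figure D2:**
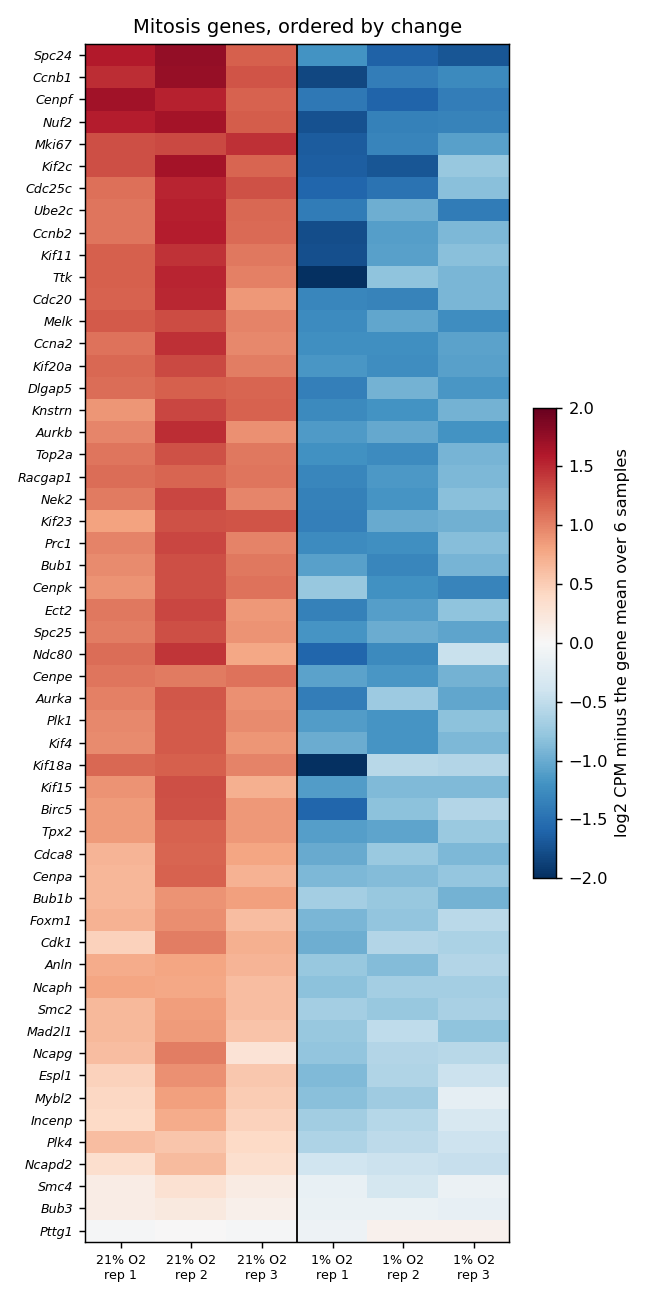
Each gene (rows, from the strongest to the weakest decrease) in each sample (columns), as log2 CPM minus that gene's mean over the 6 samples; red is above and blue below the mean, and colours end at 2 in either direction. The 3 normoxic columns are red and the 3 hypoxic columns blue for nearly every gene, normoxic sample 2 is the darkest red column, and Bub3, Smc4 and Pttg1 at the foot are near white.

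The libraries held 24749601 to 31925054 counts, and the labels do not say that samples came from separate cultures or animals, so p-values measure the spread between these samples only. Of 10 known hypoxia-induced genes 10 were called higher at 1% O2 (median log2 fold change 2.01), and Car9, carbonic anhydrase IX, reached 5.13. Fibroblast collagens were abundant in all samples, with Col1a1 between 6800 and 9630 CPM, and of 12 PSC and fibroblast markers 2 were called lower (Lum and Thy1) and 2 higher (Pdgfra and Pdpn), 16.7% each, near the 15.3% and 18.9% of all tested genes. Epithelial markers other than Krt19 were close to absent: 8 of 10 were too low to test, and Esrp1 was at 0 in every library. Of the 2 tested, Krt19 was called higher (log2 fold change 4.94, edgeR adjusted p = 1.3e-07) and Krt7 was not called. The list's summed level was 0.835 to 2.31 CPM in normoxia and 21.2 to 24.8 CPM in hypoxia, of which Krt19 made 20.6 to 23.9 CPM. Most macrophage markers moved in the same direction as the mitosis genes. Of 12 such markers none was at 0 throughout and 8 were called lower (66.7%, against 15.3% of all tested genes). Their median log2 fold change was -1.09. Ptprc, Csf1r, Mrc1 and Cd14 (0.08) were not called. The summed level of the 12 was 1000, 1790 and 1390 CPM in normoxic samples 1 to 3 and 498, 907 and 611 CPM in hypoxic samples 1 to 3. Of this, Lyz2 made 653, 1160 and 883 CPM in normoxia and 315, 546 and 378 CPM in hypoxia. Normoxic sample 2 was thus the highest of its group for these markers, as for most mitosis genes, while in hypoxia the markers were highest in sample 2 and the summed mitosis genes in sample 3. The part of macrophages in the mitosis result was not tested. Of 7 tested endothelial markers 2 were called lower (28.6%, against 15.3% of all tested genes) and 3 higher (42.9%, against 18.9%). The list summed to 20.2 to 26.0 CPM in normoxia and 30.9 to 42.5 CPM in hypoxia.

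Mki67 and Top2a, the usual markers of cycling cells, both fell. Mki67 encodes Ki-67, which coats mitotic chromosomes, and lies at chr7:135689784-135716361 (minus strand, GRCm38). Its level was 41.7, 42.4 and 47.1 CPM in the normoxic samples and 5.38, 6.80 and 8.01 CPM in the hypoxic samples. The lowest normoxic sample was thus far above the highest hypoxic one, and the log2 fold change was -2.69 ± 0.12 (SE; edgeR adjusted p = 3.18e-07). Top2a, the topoisomerase that untangles sister chromatids, was at 54.0, 62.1 and 53.8 CPM in normoxia and 11.2, 10.8 and 13.6 CPM in hypoxia. It was 4.75-fold lower, had the smallest adjusted p of the 54 genes (2.72e-07), and its groups did not overlap.

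All 5 genes of the CDK1 group fell. Cdk1 itself, at 19.3, 28.4 and 22.9 CPM in normoxia and 7.07, 9.29 and 8.96 CPM in hypoxia, changed least of them, by -1.47 ± 0.15 (SE). Ccnb1, which encodes the cyclin B1 that activates CDK1, went from 19.4, 23.2 and 16.6 CPM to 1.96, 2.68 and 2.89 CPM. This was a 7.78-fold decrease (edgeR adjusted p = 1.16e-06), among the strongest of the 54 genes. Between these lay Ccnb2 (cyclin B2, -2.47 ± 0.22), Ccna2 (cyclin A2, -2.35 ± 0.15) and Cdc25c, the phosphatase that activates CDK1 (-2.53 ± 0.27).

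The 5 mitotic and centrosome kinases fell as well, with a median of -2.08. Melk, a kinase known for its expression in dividing cells, fell most, from 5.97, 6.30 and 5.07 CPM to 1.06, 1.24 and 1.07 CPM (log2 fold change -2.36 ± 0.17). Aurka, the Aurora kinase of the spindle poles, was at 8.20, 9.72 and 7.67 CPM in normoxia and 1.57, 2.46 and 1.98 CPM in hypoxia, 4.22-fold lower. Plk1, which acts from mitotic entry to cytokinesis, was at 11.6, 13.9 and 11.5 CPM against 2.75, 2.62 and 3.36 CPM, 4.23-fold lower. In each of these kinases every hypoxic sample was below every normoxic one, and so it was for Nek2, a kinase of centrosome separation (-2.22 ± 0.17). Plk4, which licenses centriole duplication, changed least. Its 12.1, 11.6 and 10.4 CPM in normoxia stood against 5.18, 5.52 and 5.94 CPM in hypoxia, 2.05-fold lower (edgeR adjusted p = 4.50e-05).

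**Figure D3:**
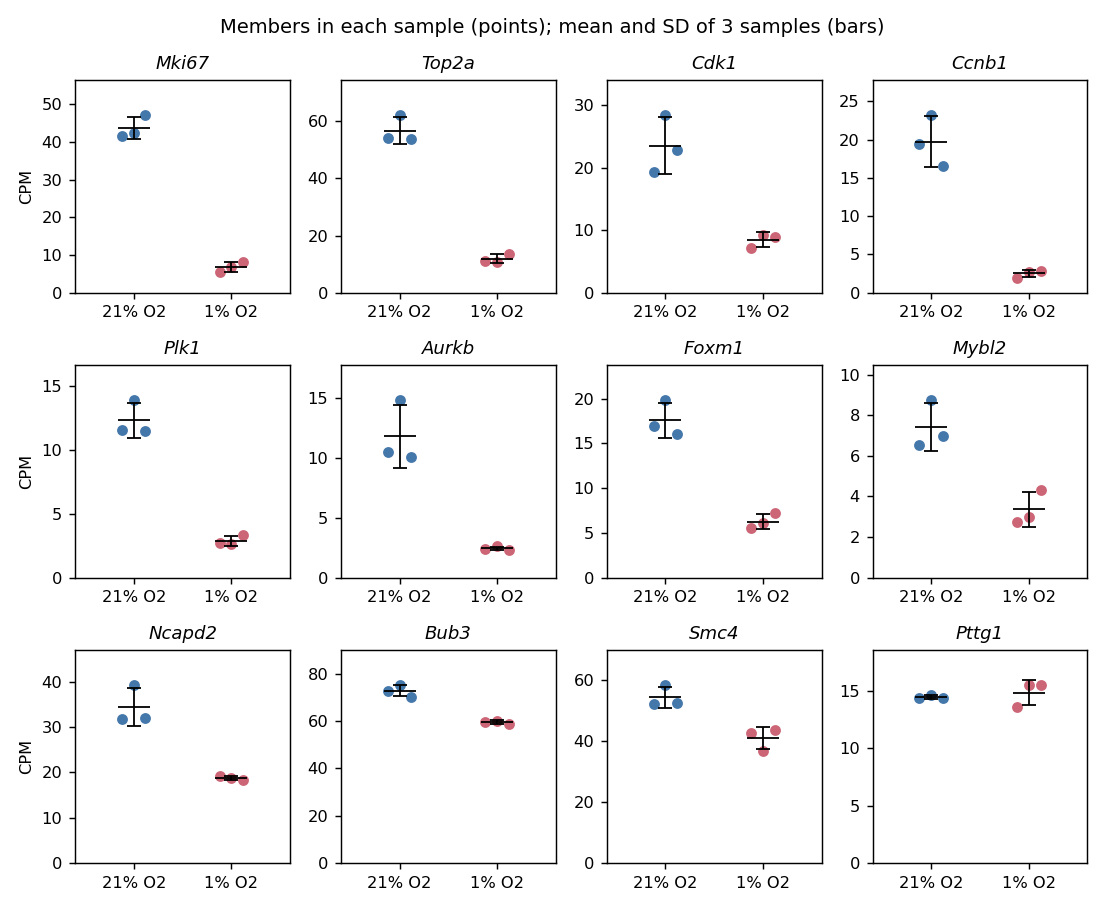
CPM in each sample (points) with the mean and SD of the 3 samples (bars) for 12 of the genes, on axes that start at 0. Points of the 2 groups are separated in every panel but that of Pttg1, widely for Mki67, Top2a and Ccnb1 and narrowly for Bub3 and Smc4.

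The spindle checkpoint genes did not move alike. Of the 5, 4 fell, namely Ttk, Bub1 (-2.20 ± 0.16), Bub1b (-1.59 ± 0.11) and Mad2l1 (-1.37 ± 0.12), which encode 2 checkpoint kinases and the inhibitors BUBR1 and MAD2. Ttk, the kinase MPS1 that starts checkpoint signaling, was at 3.93, 4.97 and 3.45 CPM in normoxia and 0.432, 0.989 and 0.911 CPM in hypoxia. Its groups were apart, with hypoxic sample 1 well below the other hypoxic samples, and the log2 fold change was -2.37 ± 0.29.

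Bub3, the adaptor that brings BUB1 and BUBR1 to kinetochores (chr7:131560222-131571895, plus strand), was at 72.9, 75.1 and 70.4 CPM in normoxia and 59.8, 60.2 and 58.6 CPM in hypoxia. The hypoxic samples all lay below the normoxic ones, but the difference was small. Its log2 fold change of -0.29 ± 0.05 had an edgeR adjusted p of 0.000915 and did not reach the fold threshold. The ratio of Bub3 to Bub1 counts within a sample was 8.93, 7.25 and 7.96 in normoxia and 29.9, 35 and 26.3 in hypoxia, a difference of 1.91 on the log2 scale. The ratio of Bub3 to Bub1b differed by 1.3. Each had p = 0.1 in an exact two-sided permutation test (0.117 after adjustment over 7 ratios), the smallest p that 3 against 3 samples allow.

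Among the partners and targets of the APC/C, 3 of 4 fell. Ube2c, the ubiquitin-conjugating enzyme of the APC/C, was at 9.66, 13.4 and 10.2 CPM in normoxia and 1.73, 2.33 and 1.73 CPM in hypoxia, 5.72-fold lower (edgeR adjusted p = 4.61e-06). Its activator Cdc20 changed by -2.37 ± 0.18 and Espl1, separase, by -1.26 ± 0.16. Pttg1, which encodes securin, the inhibitor of separase (chr11:43420250-43426251, minus strand), was at 14.4, 14.7 and 14.4 CPM in normoxia and 13.6, 15.5 and 15.5 CPM in hypoxia. It is the only one of the 54 genes whose groups overlapped, with a log2 fold change of 0.04 ± 0.08 and an edgeR adjusted p of 0.716.

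The ratio of Pttg1 to Espl1, chosen after these values were seen, was 1.38, 1.03 and 1.31 in normoxia and 3.30, 3.09 and 2.75 in hypoxia. It was higher in 3 of 3 hypoxic samples (log2 difference 1.3, exact permutation p = 0.1, adjusted 0.117). Cdc20 to Ccnb1 was 1.01, 1.07 and 0.954 in normoxia and 1.80, 1.29 and 1.59 in hypoxia (log2 difference 0.61), and Ccnb2 to Ccnb1 differed by 0.46, both with the same exact permutation p and with groups apart. For Aurkb to Aurka the groups overlapped (log2 difference -0.14, exact permutation p = 0.5, adjusted 0.5).

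All 4 subunits of the chromosomal passenger complex, which corrects faulty attachments and steers cytokinesis, fell. Its kinase Aurkb (Aurora B) was at 10.5, 14.8 and 10.1 CPM in normoxia and 2.43, 2.62 and 2.33 CPM in hypoxia, a log2 fold change of -2.26 ± 0.18. Birc5, survivin, went from 9.01, 12 and 9.09 CPM to 1.65, 2.81 and 3.33 CPM (-1.93 ± 0.23), and hypoxic sample 1 was the lowest. The scaffold Incenp changed least, by -1.06 ± 0.12, from 28.4, 36.0 and 29.5 CPM to 13.3, 14.5 and 17.2 CPM. None of these overlapped between groups, and Cdca8, borealin, was intermediate at -1.77 ± 0.16.

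The 8 centromere and kinetochore genes fell, with a median log2 fold change of -2.23, and that of the 4 subunits of the NDC80 complex, the main microtubule coupler of the kinetochore, was -2.54. Spc24, an NDC80 subunit at chr9:21755442-21760303 (minus strand), had the strongest decrease of all 54 genes. It was at 6.20, 6.98 and 4.71 CPM in normoxia and 0.903, 0.670 and 0.629 CPM in hypoxia (log2 fold change -3.03 ± 0.23, edgeR adjusted p = 5.86e-06), from 116 to 184 counts in the normoxic libraries and 20 to 23 in the hypoxic ones. Within the complex Nuf2 changed by -2.94 ± 0.18, and Ndc80 and Spc25 by -2.14 each (SE 0.29 and 0.15). Cenpf, a large kinetochore protein of G2 and mitosis, was at -2.95 ± 0.17, Cenpk at -2.18 ± 0.24 and Knstrn, a spindle and kinetochore protein, at -2.27 ± 0.16. Cenpa, the histone H3 variant that marks centromeres, changed least of the 8. It was at 12.3, 17.6 and 12.6 CPM against 4.16, 4.24 and 4.56 CPM, 3.28-fold lower, with the groups well apart.

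All 8 mitotic kinesins fell within a narrow band, from -2.67 to -1.94. At the strong end stood Kif2c, the microtubule depolymerase MCAK, with 8.12, 10.6 and 7.51 CPM in normoxia and 1.06, 1.02 and 1.98 CPM in hypoxia (-2.67 ± 0.26). At the weak end stood Kif15, a spindle motor that works beside KIF11, with 4.62, 6.07 and 4.06 CPM against 1.14, 1.34 and 1.35 CPM (-1.94 ± 0.21). Neither overlapped between groups. Between them lay Kif11, the motor that pushes spindle poles apart (-2.39 ± 0.20), Cenpe, which carries chromosomes to the spindle equator (-2.13 ± 0.11), and Kif18a (-2.01 ± 0.33). Kif20a, Kif23 and Kif4, motors of the central spindle and cytokinesis, changed by -2.33, -2.21 and -2.04.

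Spindle assembly and cytokinesis genes fell in 6 of 6 cases. Dlgap5 (HURP), which stabilizes kinetochore fibers, was at 9.62, 10.2 and 9.94 CPM in normoxia and 1.73, 2.30 and 1.98 CPM in hypoxia, 4.93-fold lower. Anln, anillin, the scaffold of the contractile ring, was at 30.5, 31.5 and 29.0 CPM against 10.7, 9.99 and 12.1 CPM and changed least, at 2.77-fold lower. The samples of neither gene overlapped between groups. The central spindle genes Prc1 (-2.20 ± 0.14), Racgap1 (-2.22 ± 0.11) and Ect2 (-2.16 ± 0.18) had nearly the same change, and Tpx2, a spindle assembly factor and activator of Aurora A, was at -1.92 ± 0.13.

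Of the 5 condensin subunits 4 fell, and the median log2 fold change was -1.31. Ncaph, the kleisin of condensin I, went from 13.1, 12.9 and 11.6 CPM to 4.28, 4.72 and 4.71 CPM (-1.45 ± 0.11), and the groups were well apart. Smc4, 1 of the pair of core ATPases (chr3:69004738-69034623, plus strand), was at 52.1, 58.2 and 52.5 CPM in normoxia and 42.5, 36.7 and 43.5 CPM in hypoxia. The hypoxic samples lay below the normoxic ones, but at -0.41 ± 0.08 (edgeR adjusted p = 0.00157) the change was under the fold threshold. Its partner Smc2 changed by -1.40 ± 0.08, and the condensin I subunits Ncapg and Ncapd2 by -1.31 ± 0.19 and -0.87 ± 0.09. The ratio of Smc4 to Smc2, chosen after these values were seen, was 1.67, 1.64 and 1.70 in normoxia and 3.41, 3.10 and 3.43 in hypoxia (log2 difference 0.99, exact permutation p = 0.1, adjusted 0.117).

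The 2 transcription factors of the late cell cycle fell. Foxm1, a forkhead factor that activates G2 and mitosis genes, was at 16.9, 19.8 and 16.0 CPM in normoxia and 5.54, 6.06 and 7.2 CPM in hypoxia (-1.48 ± 0.13). Mybl2 (B-MYB), which joins the MuvB core at such promoters, went from 6.54, 8.73 and 6.98 CPM to 2.75, 3 and 4.34 CPM (-1.13 ± 0.20). In both genes hypoxic sample 3 was the highest of its group yet below every normoxic sample.

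Compared per kilobase of exon, the order of the genes shifted with oxygen. The genes of this comparison were picked by rank after values were seen. In normoxia Cdc20 stood highest at 10.7 CPM per kb, followed by Bub3 and Smc4 at 10.4 each, Ccnb2 at 8.45 and Pttg1 at 7.25. Cdc20 varied between normoxic samples (20.1 ± 4.52 CPM, SD) by more than the gap between the leaders. In hypoxia Bub3 (8.5), Smc4 (7.85) and Pttg1 (7.43) led, with Incenp next at 3.47, and Cdc20 was at rank 7 and Ccnb1 moved from rank 15 to rank 32. Kif18a, a kinesin of chromosome alignment, was lowest in both, at 0.237 and 0.0574 CPM per kb. Across the 54 genes, which share libraries, the normoxic level per kb and the log2 fold change had a Spearman rho of 0.16.

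**Figure D4:**
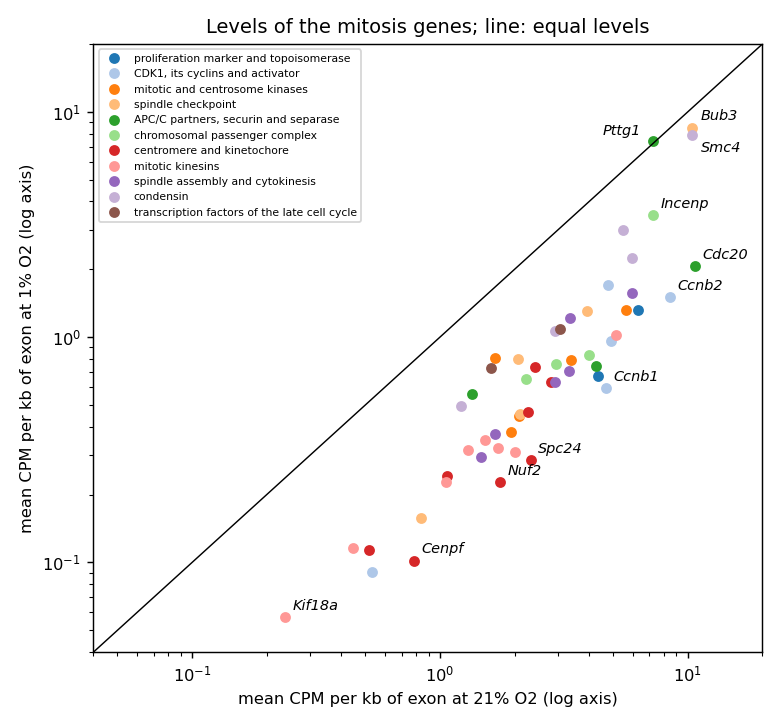
Mean CPM per kb of exon at 21% O2 (x) and 1% O2 (y), both on log axes, for each of the 54 genes, coloured by role; the line marks equal levels. Pttg1 lies at the line, Bub3 and Smc4 just under it, and the rest in a band well below it over the whole range of levels.

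At the low end few reads were counted. In 33 of the 54 genes some library had fewer than 100 counts, and in 4 (Cdc25c, Ttk, Cenpk and Kif18a) fewer than 20, the smallest being 6 counts of Kif18a in hypoxic sample 1 against 23 in each of the others. Exons of 14 genes overlap a gene on the opposite strand, among them Ccna2, Cdc20, Ube2c, Plk1 and Prc1, and those of 3 (Top2a, Ncapd2 and Foxm1) a gene on the same strand, and whether counting used strand is not given in the sources used here.

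The decrease extended to mitosis genes outside the set. Of 84 others on a list of kinetochore, spindle, cohesion and cytokinesis genes 60 fell and 1 rose, with a median log2 fold change of -1.30, where 15.3% of all tested genes were called lower and 18.9% higher. The strongest were Depdc1a at -3.29 ± 0.30, Cenpm, a centromere protein, at -3.19 ± 0.35, and Pbk, a mitotic kinase, at -3.11 ± 0.21. Hjurp, the chaperone that loads CENP-A, rose instead, from 80.0, 93.1 and 81.6 CPM to 152, 169 and 170 CPM (0.95 ± 0.07, edgeR adjusted p = 6.79e-06). Its direction was thus opposite to that of its client Cenpa, and the hypoxic samples were all above the normoxic ones. Zwint, a kinetochore protein, at 0.55 ± 0.06, and Ncaph2, a subunit of condensin II, at 0.48 ± 0.06, were higher without reaching the fold threshold.

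Subunits of the ring complexes, looked at after values were seen, also differed among themselves. Of condensin II, Ncapg2 fell by 1.27 on the log2 scale, while Ncapd3 was at 0.28. The cohesin subunits Smc1a, Smc3, Rad21 and Stag2, which hold sister chromatids together and also act outside mitosis, were not called, at -0.36, 0, 0.08 and 0.27.

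Of 14 subunits of the APC/C itself 0 were called in either direction by edgeR, DESeq2 or limma-voom, and the median log2 fold change was -0.10. Of all tested genes, edgeR called 15.3% lower and 18.9% higher, and the list is short. At an unadjusted p under 0.05, 6 were lower and 3 higher, where over all 16207 tested genes 5367 were lower and 5416 higher. The extremes were Anapc13 (-0.35 ± 0.09), Anapc10 (-0.34 ± 0.12) and Cdc27 (-0.29 ± 0.08) on 1 side and Anapc5 (0.39 ± 0.08), Anapc2 (0.35 ± 0.06) and Anapc16 (0.24 ± 0.05) on the other.

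DREAM and MuvB are the complexes known to repress and activate these promoters. Of 12 of their components and related regulators 1 fell (8.33%, against 15.3% of all tested genes), and the median log2 fold change was -0.14. By edgeR, DESeq2 or limma-voom 0 were called higher, where edgeR called 18.9% of all tested genes higher. At an unadjusted p under 0.05, 4 of the 12 were lower and 2 higher. Over all 16207 tested genes 5367 were lower and 5416 higher at that cut, so these counts do not set the list apart. The gene that fell was Rbl1, the pocket protein p107, from 14.2, 16.6 and 13.4 CPM to 6.13, 6.00 and 6.10 CPM (-1.28 ± 0.11, edgeR adjusted p = 1.09e-05). Rb1, the retinoblastoma protein, a pocket protein related to those of DREAM, at 0.58 ± 0.08, was just under the fold threshold and passed it in some alternatives. Its exons overlap Lpar6 and Rcbtb2 on the other strand. Tfdp2 (-0.35 ± 0.09), Rbbp4 (-0.34 ± 0.05), Lin37 (0.11 ± 0.11) and E2f4 (0.17 ± 0.05) were the other extremes.

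S phase genes were lower as well. Of 48, 33 fell (68.8%, against 15.3% of all tested genes) and 1 rose (2.08%, against 18.9%), and the median log2 fold change was -0.82. Rrm2, the small subunit of ribonucleotide reductase, went from 21.4, 27.6 and 19.8 CPM to 2.63, 4.37 and 3.21 CPM (-2.74 ± 0.19), followed by Uhrf1, a factor of maintenance methylation (-2.37 ± 0.13), and Mcm5, of the replicative helicase (-2.28 ± 0.19). Pola2, a subunit of DNA polymerase alpha, rose, from 17.8, 20.6 and 18.8 CPM to 36.6, 35.4 and 34.2 CPM (0.89 ± 0.07), with groups apart. E2f1 at 0.45 ± 0.06 and Ung, the uracil glycosylase, at 0.34 ± 0.18 were not called. That the median of the S phase list lay nearer to 0 than that of the mitosis genes was not tested.

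**Figure D5:**
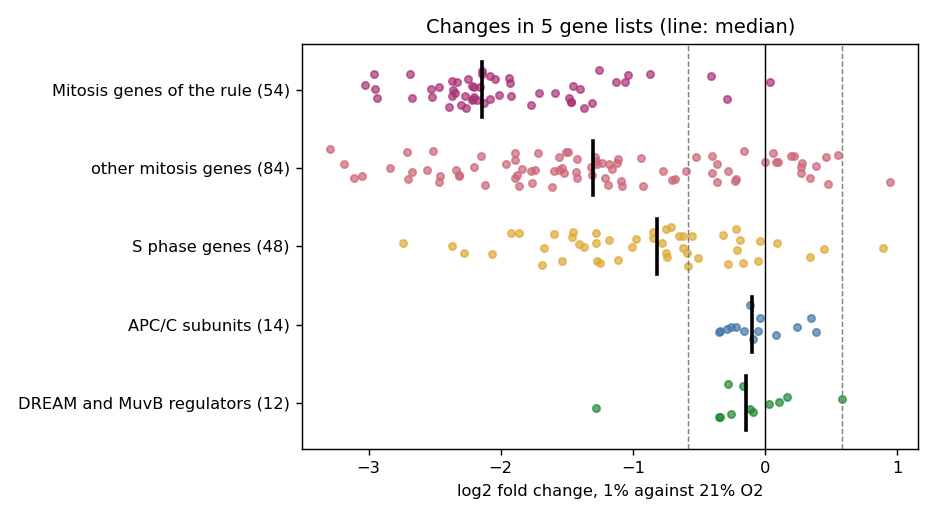
The log2 fold change at 1% against 21% O2 (x) of each tested gene (points, shifted vertically for legibility) in 5 lists, with the list's median (thick line) and a fold change of 1.5 in either direction (dashed lines). The mitosis genes centre at -2.14, the other mitosis genes at -1.30 and the S phase genes at -0.82, while APC/C subunits and DREAM and MuvB regulators centre at -0.10 and -0.14.

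The changes were last set beside the promoter letters, as a description. The 29 genes with a CHR core in the window had a median log2 fold change of -2.14, with 28 of 29 called lower, and the 15 without one had -2.13, with 14 of 15 called lower. With both the CHR core and CCAAT the median was -2.14 over 25 genes and otherwise -2.13 over 19. The following examples were picked after values were seen, and whether the letters bear on the change was not tested. Bub3, which barely changed, held in 1 of its RefSeq windows 2 copies of CCAAT, 74 and 32 bases before the start, and a reversed CHR core 43 bases before it. The strongly lower Cdc20 likewise held CCAAT 53 and 8 bases and a CHR core 18 bases before its start. Cdk1, with a CHR core 71 and 15 bases and a reversed CCAAT 208, 80 and 48 bases before its start, fell less than Ccnb1. The window of Ccnb1 held CCAAT at 99 and 67 bases before the start and no TTTGAA. Only the exact letters TTTGAA, on either strand, were searched for as the CHR core.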

How the data were processed

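Total RNA of PSCs from 3 normoxic and 3 hypoxic cocultures was sequenced by the authors as poly(A) libraries on a NovaSeq. Per the paper's methods and the labels, the authors trimmed reads with Cutadapt, mapped them to GRCm38 with STAR 2.6.1b and assigned them to genes with RSEM 1.3.1, which divides reads shared between genes. The annotation release, the strand setting and any pairing of samples are not given in the sources used here. The authors deposited expected counts (estimated counts per gene, not normalized) for 55426 features, 5 of them transgenes with 0 counts, and 0 values had a fraction, so rounding changed nothing.

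From these counts, edgeR 4.0.16 (R 4.3.3) was used with filterByExpr, which kept 16207 genes, TMM scaling and quasi-likelihood F tests, and p-values were adjusted over all of them by Benjamini-Hochberg. A gene was called at a linear fold change beyond 1.5 and an adjusted p under 0.05, thresholds taken from the methods. The standard error is the size of the log2 fold change divided by the square root of F, and CPM are per TMM-scaled library. Symbols, exon lengths and coordinates came from GENCODE M21, in which 55240 features were found. Libraries held 24749601 to 31925054 counts, at which 3 counts equal 0.0943 to 0.122 CPM, a limit of counting error only. Replicates of a group differed by a chi-square per degree of freedom of 4.5 to 16.8, so none was a library deposited again. DESeq2 1.42.0, limma-voom (limma 3.58.1), other scalings, filters and fold thresholds, GC and length offsets, the replicate block and leaving out each sample were alternatives. In counts simulated for this comparison (15971 genes in the fit), edgeR recovered 184 of 200 changed genes with 9 false calls. Those 200 genes had a mean above 1 CPM and changed by more than the 1.5-fold threshold, in equal numbers up and down. Far more genes were called in the data, so the recovery is no measure of power here.

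The genes and lists were chosen with earlier results of these data known. Values in every sample are given for the members with the lowest and the highest change in each role, for 10 members listed by name (Mki67, Top2a, Cdk1, Ccnb1, Aurka, Aurkb, Plk1, Birc5, Foxm1 and Mybl2) and for members not called. From the other lists of cell cycle genes the 3 lowest and 3 highest are named. Genes outside this rule are marked in the text or given by their change only. Ratios of counts within a sample were compared by an exact two-sided permutation test. Promoter windows came from RefSeq on GRCm38.p6.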

Additional observations from a re-analysis of the deposited data

How the results depend on the processing

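The number of mitosis genes called lower was 51 under every alternative of scaling, filter, tool and offset and without each sample in turn, except for 50 at a fold change beyond 2 and 53 with no fold threshold, where Bub3 and Smc4 were added. Their median log2 fold change ranged from -2.21 (without hypoxic sample 3) to -2.03 (without normoxic sample 2). No named gene changed direction past the threshold. At a fold change beyond 2, the calls over all genes were 1227 lower and 1929 higher, 21 S phase genes were lower, and 0 of the S phase genes and 0 of the other mitosis genes were higher. With no fold threshold they were 5018 lower and 5150 higher, with APC/C subunits at 5 lower and 3 higher, DREAM and MuvB regulators at 4 lower and 2 higher, 10 other mitosis genes higher and 2 S phase genes higher. Rb1, close to the fold threshold, made 1 DREAM and MuvB regulator higher with a filter of mean 1 CPM, with the GC offset and with the GC offset and replicate block, and between 0 and 1 when samples were left out (1 without normoxic sample 2, normoxic sample 3 or hypoxic sample 3). Zwint likewise made 2 other mitosis genes higher with the GC offset, with or without the replicate block.

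The groups share replicate numbers 1 to 3, but the deviations of samples with the same number from their group means correlated at 0.14, 0.14 and 0.04 over all tested genes, so the numbers were not taken as pairs. Over genes with a mean log2 CPM above 2 the values were 0.38, 0.28 and 0.1, and each normoxic sample correlated best with its own number, which is a hint from the data and not from the design. With the replicate block, edgeR called 51 mitosis genes lower, with a median of -2.14, and 2500 genes lower and 3072 higher overall. Depth limits the genes with fewest reads, such as Kif18a with 6 counts in hypoxic sample 1, and 3 samples a group allow no exact permutation p under 0.1.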
